A study of Homo sapiens with 8 samples.

Results

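The pericentromeric part of chromosome 2 held 454 of the 4020 PCNA peaks found in MCF10A and TUBG-shRNA-MCF10A cells in early S phase. The members are all peaks on chromosome 2 (hg19) with a start from 88000000 to 96999999, an interval that includes the centromere gap of the assembly at about 92.33 to 95.33 Mb. MCF10A is an established line of human breast epithelium that does not form tumours. TUBG-shRNA-MCF10A cells are the same line after stable transfection with a short hairpin RNA against γ-tubulin and selection with Zeocin. Cells of both populations were arrested by thymidine, applied in 2 blocks, released for 1 or 2 h, and used for chromatin immunoprecipitation with an anti-PCNA antibody followed by sequencing (ChIP-seq). The 8 ChIP libraries, 2 for each condition, had whole-cell lysate as control, and the authors called 1 list of peaks on both libraries of a condition together. The labels do not say whether the transfected cells were a clone or a mixed population.

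PCNA is the ring-shaped sliding clamp that replication factor C loads onto DNA at replication forks, where it holds the DNA polymerases on their template. The DNA beside human centromeres is rich in satellite repeats and in segmental duplications, long blocks of nearly the same sequence at several places in the genome. γ-Tubulin is best known as the nucleator of microtubules at centrosomes, and it is also found in the nucleus. Positions are given on hg19 without genes, since no annotation or sequence of that build was used here.

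In each list, PCNA peaks were packed into 4 short stretches of chromosome 2, all on the lower-coordinate side of the gap. No member started between the gap and the end of the interval. A stretch was defined, after the positions had been seen, as a run of peaks of any list less than 10 kb apart. The stretch farthest from the gap ran from 89830647 to 89879987 (49.3 kb, called the 89.9 Mb stretch) and held 146 peaks of the 4 lists. The next ran from 90371711 to 90394537 (22.8 kb, the 90.4 Mb stretch) and held 89 peaks. The 91.6 Mb stretch ran from 91595153 to 91616021 (20.9 kb) and held 97 peaks. The 92.3 Mb stretch ran from 92267616 to 92326147 (58.5 kb), held 121 peaks and ended just before the edge of the gap. The remaining member was a lone peak of the MCF10A 1 h list, from 90431802 to 90431956, with a fold enrichment of 5.40. It lay 37.3 kb beyond the 90.4 Mb stretch and 1163 kb before the 91.6 Mb stretch. The 89.9 and 90.4 Mb stretches were 492 kb apart, and the 91.6 and 92.3 Mb stretches 652 kb. Thus, the 89 to 90 Mb cluster is the 89.9 Mb stretch, and the cluster next to the gap (starts within 1 Mb of it) consists of the 91.6 and 92.3 Mb stretches.

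Few other peaks were called on chromosome 2. Members made up 90.5% (1 h) and 88.1% (2 h) of the chromosome 2 peaks in MCF10A cells, and 83.7% (1 h) and 95.5% (2 h) in TUBG-shRNA-MCF10A cells. The first member was a peak of the TUBG-shRNA-MCF10A 2 h list from 89830647 to 89830792, with a fold enrichment of 3.26. The last was a peak of the TUBG-shRNA-MCF10A 1 h list from 92325778 to 92326087, with a fold enrichment of 2.22. The nearest peaks outside the interval were both in the MCF10A list at 2 h, from 84334247 to 84334311 (fold enrichment 4.60) and from 98882716 to 98882792 (fold enrichment 8.20).

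**Figure D1:**
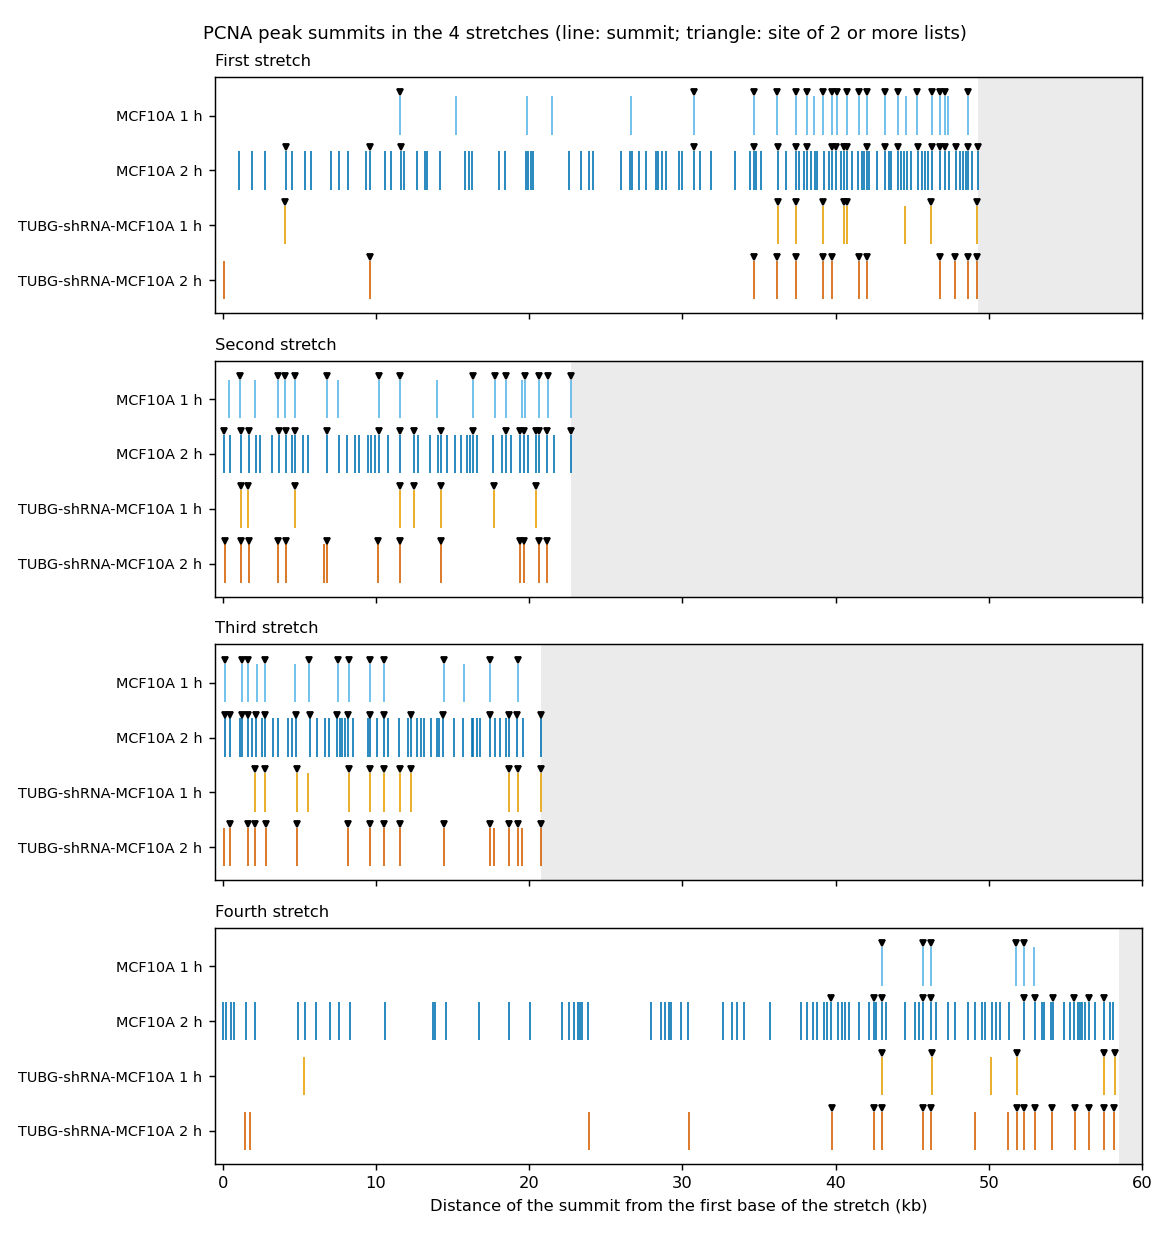
Each vertical line is the summit of a PCNA peak, placed by its distance in kb from the first base of its stretch, with 1 row for each list. The stretches, in the order of the panels, are those at 89.9, 90.4, 91.6 and 92.3 Mb, grey marks the space beyond the end of a stretch, and triangles mark summits that lie at a site of 2 or more lists. Summits of the MCF10A list at 2 h fill all stretches, while those of the other lists lie mostly in the end nearest to the gap in the 89.9 and 92.3 Mb stretches.

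The number of peaks in the interval was higher at 2 h than at 1 h in both cell populations, and at both times MCF10A cells had more than TUBG-shRNA-MCF10A cells. MCF10A cells had 67 peaks at 1 h (95% exact Poisson interval 51.9 to 85.1) and 288 at 2 h (256 to 323). TUBG-shRNA-MCF10A cells had 36 at 1 h (25.2 to 49.8) and 63 at 2 h (48.4 to 80.6). The ratio of 2 h to 1 h was 4.30 in MCF10A cells (95% exact binomial interval 3.28 to 5.70) and 1.75 in TUBG-shRNA-MCF10A cells (1.14 to 2.71). For the rest of each list, these ratios were 5.01 (4.55 to 5.53) and 1.33 (1.12 to 1.57), with ranges that overlap those of the members. The lists pool the replicates, so no test of conditions against the spread of replicates could be made. All intervals cover counting error only and treat neighbouring peaks as independent. With peaks of a list within 1 kb of each other joined, the numbers became 31 (1 h) and 26 (2 h) in MCF10A cells and 26 (1 h) and 31 (2 h) in TUBG-shRNA-MCF10A cells. The direction then reversed for 2 h against 1 h in MCF10A cells and, at 2 h, for MCF10A against TUBG-shRNA-MCF10A cells, both to a ratio of 0.839 (0.478 to 1.46), because dense peaks fuse. In base pairs covered by the peaks as listed, these ratios were 2.97 and 3.94.

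The MCF10A list at 2 h had narrower peaks than the others. Its shortest peak measured 47 bp, whereas those of the other lists measured 112 to 121 bp, and in MACS2 peaks are not listed below the fragment length used in calling. The median width of the members was 109 bp in this list, 165 bp in the MCF10A 1 h list, 139 bp in the TUBG-shRNA-MCF10A 1 h list and 149 bp in the TUBG-shRNA-MCF10A 2 h list. Its median summit in the interval held 25 reads, against 63 reads at 1 h, and 61 (1 h) and 56 (2 h) reads in TUBG-shRNA-MCF10A cells. Reads were recovered as whole numbers from the fold enrichment and the p-value of each peak. Why the shortest peaks differed, through the libraries or through the settings of peak calling, is unknown. The part of these differences in the number of peaks was not tested.

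Set against the rest of each list, the interval took a larger share in the TUBG-shRNA-MCF10A 2 h list. Members were 11.9% (95% Wilson interval 9.498 to 14.9) of the MCF10A 1 h list and 10.4% (9.32 to 11.6) of the MCF10A 2 h list. They were 12.4% (9.10 to 16.7) of the TUBG-shRNA-MCF10A 1 h list and 15.8% (12.5 to 19.6) of the TUBG-shRNA-MCF10A 2 h list. The intervals at 2 h did not overlap between the cell populations. Accordingly, the MCF10A 2 h list had 4.57 times as many members as the TUBG-shRNA-MCF10A 2 h list (3.47 to 6.10) and 7.36 times as many other peaks (6.56 to 8.27). At 1 h these ratios were 1.86 (1.22 to 2.87) and 1.95 (1.67 to 2.28). Among the 100 peaks with the highest −log10 q-value of each list, members numbered 15 (1 h) and 6 (2 h) in MCF10A cells, and 8 (1 h) and 20 (2 h) in TUBG-shRNA-MCF10A cells. The 95% Wilson intervals were 9.31 to 23.3%, 2.78 to 12.5%, 4.11 to 15.0% and 13.3 to 28.9% in the same order. Each includes the share of members in its whole list.

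The 89 to 90 Mb cluster held a smaller share of these peaks than the cluster next to the gap at 2 h in both cell populations. At 1 h, the intervals of the shares overlapped in both. These shares are not set against length. The 89 to 90 Mb cluster spans 49.3 kb, and the stretches of the cluster next to the gap span 20.9 and 58.5 kb. The 89 to 90 Mb cluster had 26 (1 h) and 98 (2 h) peaks in MCF10A cells, and 9 (1 h) and 13 (2 h) in TUBG-shRNA-MCF10A cells. The cluster next to the gap had 21 (1 h) and 142 (2 h), and 19 (1 h) and 36 (2 h). The share of the first cluster was thus 38.8% (28.0 to 50.8) and 34.0% (28.8 to 39.7) in MCF10A cells, and 25% (13.8 to 41.1) and 20.6% (12.5 to 32.2) in TUBG-shRNA-MCF10A cells. The share of the second was 31.3% (21.5 to 43.2) and 49.3% (43.6 to 55.1) in MCF10A cells, and 52.8% (37.0 to 68.0) and 57.1% (44.9 to 68.6) in TUBG-shRNA-MCF10A cells. Between the cell populations, the numbers in the 89 to 90 Mb cluster differed 2.89 times at 1 h (1.31 to 7.01) and 7.54 times at 2 h (4.21 to 14.7). In the cluster next to the gap they differed 1.11 times at 1 h (0.566 to 2.173), an interval that includes 1, and 3.94 times at 2 h (2.72 to 5.86). The intervals of these ratios between cell populations overlapped between the clusters at both times.

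The 92.3 Mb stretch, beside the gap, gained most peaks with time. It held 6 peaks in the MCF10A 1 h list and 89 in the MCF10A 2 h list, which is a ratio of 14.8 (6.55 to 41.5). In the same cells, the ratio was 3.77 (2.43 to 6.05) in the 89.9 Mb stretch, 2.53 (1.46 to 4.55) in the 90.4 Mb stretch with 19 and 48 peaks, and 3.53 (1.96 to 6.75) in the 91.6 Mb stretch with 15 and 53 peaks. The interval of the 92.3 Mb stretch lay above those of the 89.9 and 90.4 Mb stretches and overlapped that of the 91.6 Mb stretch slightly. In TUBG-shRNA-MCF10A cells, the 92.3 Mb stretch went from 7 to 19 peaks with a ratio of 2.71 (1.09 to 7.64), which was the only one of the 4 stretches with an interval above 1. The range of this ratio includes 1.33, the ratio for the rest of the list in these cells. In MCF10A cells, the range for the 92.3 Mb stretch lay above the 5.01 (4.55 to 5.53) of the rest of the list. However, its bounds came from these same peaks and it is the highest of the 4, so its interval cannot set it apart. The MCF10A lists also differ in shortest peak, 121 bp (1 h) and 47 bp (2 h). Their median background in this stretch was 96.4 and 9.28 reads. The part of these differences in the gain was not tested. The 90.4 Mb stretch had 8 and 14 peaks and the 91.6 Mb stretch 12 and 17 peaks in TUBG-shRNA-MCF10A cells, with ratios of 1.75 (0.685 to 4.81) and 1.42 (0.638 to 3.25). At 1 h, the 92.3 Mb stretch had 6 peaks in the MCF10A list and 7 in the TUBG-shRNA-MCF10A list, a ratio of 0.857 (0.238 to 2.98).

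**Figure D2:**
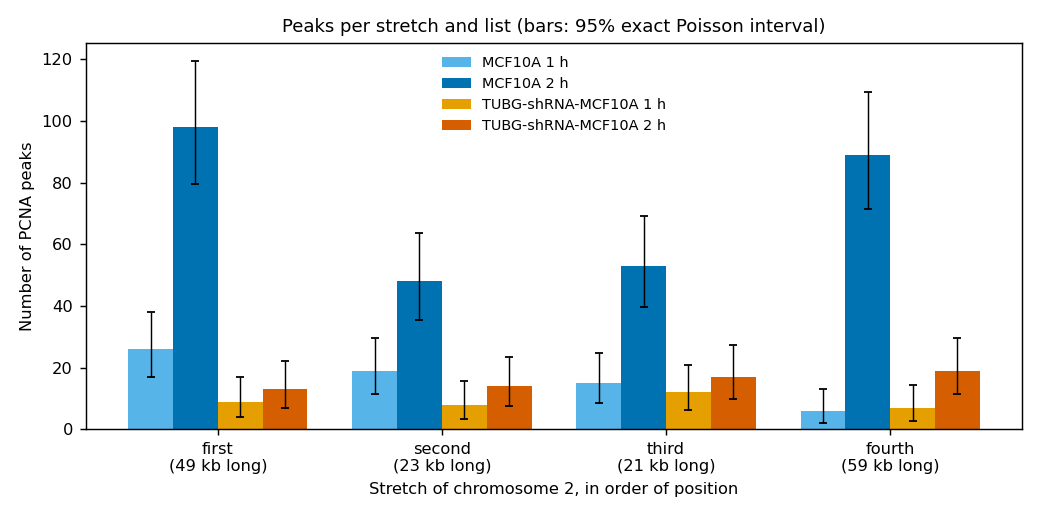
Bars give the number of PCNA peaks in each stretch and list, from 0, with the length of each stretch under its name and 95% exact Poisson intervals for counting error as error bars. The stretches, in order, are those at 89.9, 90.4, 91.6 and 92.3 Mb. In MCF10A cells, the 92.3 Mb stretch went from 6 peaks at 1 h to 89 at 2 h, the widest step of the 4.

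Per length, taken over each whole stretch, the short middle stretches were the most densely covered. In the MCF10A 2 h list, the 91.6 Mb stretch had 25.4 peaks per 10 kb with 39.2% of its bases under a peak, and the 90.4 Mb stretch had 21.03 peaks per 10 kb with 34.5%. The 89.9 and 92.3 Mb stretches had 19.9 and 15.2 peaks per 10 kb, with 22.3% and 23.1% of their bases covered. The same order of the middle over the outer stretches held in the other 3 lists. In the MCF10A 1 h list, the density was 8.32 peaks per 10 kb in the 90.4 Mb stretch and 7.19 in the 91.6 Mb stretch, against 5.27 in the 89.9 Mb stretch and 1.03 in the 92.3 Mb stretch. In the TUBG-shRNA-MCF10A 2 h list, it was 6.13 in the 90.4 Mb stretch and 8.15 in the 91.6 Mb stretch, against 2.63 in the 89.9 Mb stretch and 3.25 in the 92.3 Mb stretch. These lengths were set by the peaks themselves. The last 10 kb of the 89.9 Mb stretch had 13 (1 h) and 34 (2 h) peaks in MCF10A cells, above the densities of both middle stretches. With 5 (1 h) and 6 (2 h) peaks in TUBG-shRNA-MCF10A cells, it was not above both.

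Within a list and stretch, neighbouring summits lay from 111 to 37718 bp apart. In the 89 to 90 Mb cluster, the median spacing was 804 bp (quartiles 555 and 1493) in the MCF10A 1 h list and 327 bp (218 and 602) at 2 h. The TUBG-shRNA-MCF10A lists had 1738 bp (1308 and 3195) at 1 h and 1364 bp (783 and 2537) at 2 h. In the cluster next to the gap, with spacings taken inside its stretches, the medians were 1108 and 380 bp in MCF10A cells at 1 and 2 h, and 1518 and 1037 bp in TUBG-shRNA-MCF10A cells. The closest summits of one list were 111 bp apart, in the 92.3 Mb stretch in the MCF10A 2 h list.

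The peaks were not spread evenly over the 2 longest stretches. In successive 10 kb of the 89.9 Mb stretch, counted toward the gap, the MCF10A list had 0, 3, 2, 8 and 13 peaks at 1 h and 12, 15, 17, 20 and 34 at 2 h. The TUBG-shRNA-MCF10A lists had 1, 0, 0, 3 and 5 peaks at 1 h and 2, 0, 0, 5 and 6 at 2 h. Thus, peaks of all lists were most frequent in the 10 kb nearest to the gap. The local background, the number of reads the peak caller took as the expected level at the summit, was also higher toward the gap. In the MCF10A 1 h list, its median was 5.90 and 8.03 reads where the 3 and 2 peaks lay and 29.0 and 23.6 reads where the 8 and 13 peaks lay. In the 92.3 Mb stretch, all 6 peaks of the MCF10A 1 h list lay more than 40 kb from its start. Of the 19 peaks of the TUBG-shRNA-MCF10A 2 h list, 5 lay between 40 and 50 kb and 9 beyond 50 kb.

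Many summits recurred between the conditions. Summits of different lists were taken as 1 site where neighbouring summits lay within 50 bp, so that a chain of summits can span more. The 454 peaks formed 327 sites, of which 250 were in 1 list, 37 in 2, 30 in 3 and 10 in all 4. Sites of all 4 lists made up 3.06% of the sites in the interval, against 2.11% of the 3171 sites of all lists, with members included. Of the MCF10A peaks, 50 of 67 (74.6%) at 1 h and 70 of 288 (24.3%) at 2 h lay at a site of 2 or more lists, against 72.6% and 17.7% of all peaks of these lists. Of the TUBG-shRNA-MCF10A peaks, 32 of 36 (88.9%) at 1 h and 52 of 63 (82.5%) at 2 h did so, against 76.6% and 76.5%. The 95% Wilson intervals of the share among members and in the whole list did not overlap in the MCF10A 2 h list (19.7 to 29.6 and 16.3 to 19.1). They overlapped in the MCF10A 1 h list (63.1 to 83.5 and 68.8 to 76.1), the TUBG-shRNA-MCF10A 1 h list (74.7 to 95.6 and 71.3 to 81.1) and the TUBG-shRNA-MCF10A 2 h list (71.4 to 90.0 and 72.1 to 80.4). Each whole list includes its members. By stretch, the MCF10A 2 h share was 39.6% (27.0 to 53.7) at 90.4 Mb and 34.0% (22.7 to 47.4) at 91.6 Mb. It was 22.4% (15.3 to 31.7) at 89.9 Mb and 12.4% (7.04 to 20.8) at 92.3 Mb, where the intervals overlapped that of the whole list. Whether dense peaks meet within 50 bp more often was not tested. The MCF10A list at 2 h alone accounted for 218 of the 250 sites of 1 list. At the 77 sites of 2 or more lists, whose width is bounded by the 50 bp used to link them, summits spread over a median of 24 bp, over at most 10 bp at 19 sites, and over 81 bp at the widest.

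The 10 sites of all 4 lists lay in each stretch, with 1 in the 89.9 Mb stretch, 2 in the 90.4 Mb stretch, 5 in the 91.6 Mb stretch and 2 in the 92.3 Mb stretch. Per stretch, this was 0.909% of 110, 3.64% of 55, 8.20% of 61 and 2.00% of 100 sites. In the 89.9 Mb stretch, the site had its summits between 89868037 and 89868072. Its summit reads were 102 (1 h) and 60 (2 h) in MCF10A cells and 103 (1 h) and 92 (2 h) in TUBG-shRNA-MCF10A cells, with fold enrichments of 2.23, 7.60, 1.87 and 3.12 in the same order. Of the 90.4 Mb sites, the summits lay between 90372878 and 90372939 and between 90383269 and 90383314. In the 91.6 Mb stretch, the summits lay from 91597905 to 91597952, 91603346 to 91603394, 91604752 to 91604776, 91605671 to 91605702 and 91614364 to 91614428. The tightest of the 10 was that at 91604752, with a spread of 24 bp. Its fold enrichments were 4.01 (1 h) and 8.70 (2 h) in MCF10A cells, and 2.08 (1 h) and 4.18 (2 h) in TUBG-shRNA-MCF10A cells. In the 92.3 Mb stretch, the summits lay from 92310634 to 92310665 and from 92313856 to 92313886. At the former, the summit reads were 172 (1 h) and 60 (2 h) in MCF10A cells and 162 (1 h) and 160 (2 h) in TUBG-shRNA-MCF10A cells. The fold enrichments at this site were low, at 1.74, 3.28, 1.66 and 2.08 in the same order, over backgrounds of 98.4, 17.6, 96.9 and 76.6 reads.

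The strongest peak of the interval by q-value within its list stood at 89869840. It ranked first of all 562 peaks in the MCF10A 1 h list, with 118 summit reads over a background of 28.5, and first of all 400 in the TUBG-shRNA-MCF10A 2 h list, with 104 over 25.02. In the TUBG-shRNA-MCF10A 1 h list, it ranked 7 of 290, with 117 over 37.3 reads and a fold enrichment of 3.08. Its summits in these lists, 89869840, 89869839 and 89869845, lay at nearly the same base. In the MCF10A 2 h list, a peak from 89869742 to 89870082 covered this place with a fold enrichment of 8.60, and its summit at 89869908 was more than 50 bp from each of the others. This peak ranked 136 of 2768, and the site therefore counts as one of 3 lists.

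In the MCF10A 2 h list, the strongest members lay between that place and the end of the stretch. They ran from 89870386 to 89870468 (fold enrichment 16.0, −log10 q-value 51.6), from 89876813 to 89877157 (17.8 and 47.5) and from 89877242 to 89877588 (17.1 and 42.7), and ranked 8, 16 and 27 in the list. Each lay at a site of 3 lists. The first of these had 62 summit reads over a background of 2.93 in the MCF10A 2 h list, 79 over 29.5 in the MCF10A 1 h list, and 65 over 24.3 in the TUBG-shRNA-MCF10A 2 h list. These values are given side by side and not compared between lists.

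Within each list, the top 3 peaks next to the gap had lower fold enrichments than the top 3 of the 89 to 90 Mb cluster. The site at 92319936 led the cluster in the MCF10A 1 h list, with 185 summit reads over 78.8 and a fold enrichment of 2.33. It had 165 reads over 65.2 and a fold enrichment of 2.51 in the TUBG-shRNA-MCF10A 2 h list, and 65 over 10.6 and 5.68 in the MCF10A 2 h list. The leading peak of the cluster in the TUBG-shRNA-MCF10A 2 h list, from 92291436 to 92291563, had 167 reads over 65.2, ranked 10 in the list and lay at a site of 1 list. In the TUBG-shRNA-MCF10A 1 h list, the leading peak was the last one before the gap, from 92325778 to 92326087, with 130 reads over 58.0. In the MCF10A 2 h list, it ran from 92316454 to 92316862, had 63 reads over 8.32 (fold enrichment 6.87) and ranked 187.

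The fold enrichment was higher in the 89 to 90 Mb cluster than next to the gap in 3 of the 4 lists. Its median was 2.996 against 2.71 in the MCF10A 1 h list, 7.44 against 4.70 at 2 h, and 2.90 against 2.50 in the TUBG-shRNA-MCF10A 2 h list. In the TUBG-shRNA-MCF10A 1 h list, it was 2.30 against 2.34. The 95% intervals of these medians, from order statistics over peaks, did not overlap in the MCF10A 2 h list (6.86 to 8.30 and 4.51 to 5.11) and overlapped in the other lists. Over the whole interval, the medians were 2.996 (1 h) and 6.04 (2 h) in MCF10A cells, and 2.50 (1 h) and 2.65 (2 h) in TUBG-shRNA-MCF10A cells. For the rest of each list, they were 3.11, 5.98, 2.34 and 2.34 in the same order. The 95% intervals of members and rest did not overlap in the TUBG-shRNA-MCF10A 2 h list (2.45 to 3.11 and 2.21 to 2.43) and overlapped in the other lists. Levels are compared here within a list, since the lists differ in their shortest peak and in background.

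Within the cluster next to the gap, the lower values were those of the 92.3 Mb stretch. Its median fold enrichment was the lowest of the 4 stretches in every list, at 1.78 (1 h) and 4.15 (2 h) in MCF10A cells and 1.80 (1 h) and 2.08 (2 h) in TUBG-shRNA-MCF10A cells. In the 91.6 Mb stretch of the same cluster, it was 3.43 (1 h) and 6.46 (2 h), and 2.61 (1 h) and 3.69 (2 h). The 90.4 Mb stretch had 3.05 (1 h) and 6.61 (2 h), and 2.71 (1 h) and 2.88 (2 h). The local background ran the other way. Its median in the 92.3 Mb stretch was 96.4 (1 h) and 9.28 (2 h) reads in MCF10A cells and 87.0 (1 h) and 65.2 (2 h) reads in TUBG-shRNA-MCF10A cells. This was 51.3, 21.2, 64.0 and 46.7 times the smallest background of each list, while the other stretches had medians between 4.01 and 24.4 times. The summit reads of the 92.3 Mb stretch were also the highest, with medians of 175 (1 h) and 43 (2 h) in MCF10A cells, and 150 (1 h) and 153 (2 h) in TUBG-shRNA-MCF10A cells. The part of the background in the lower fold enrichments was not tested.

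**Figure D3:**
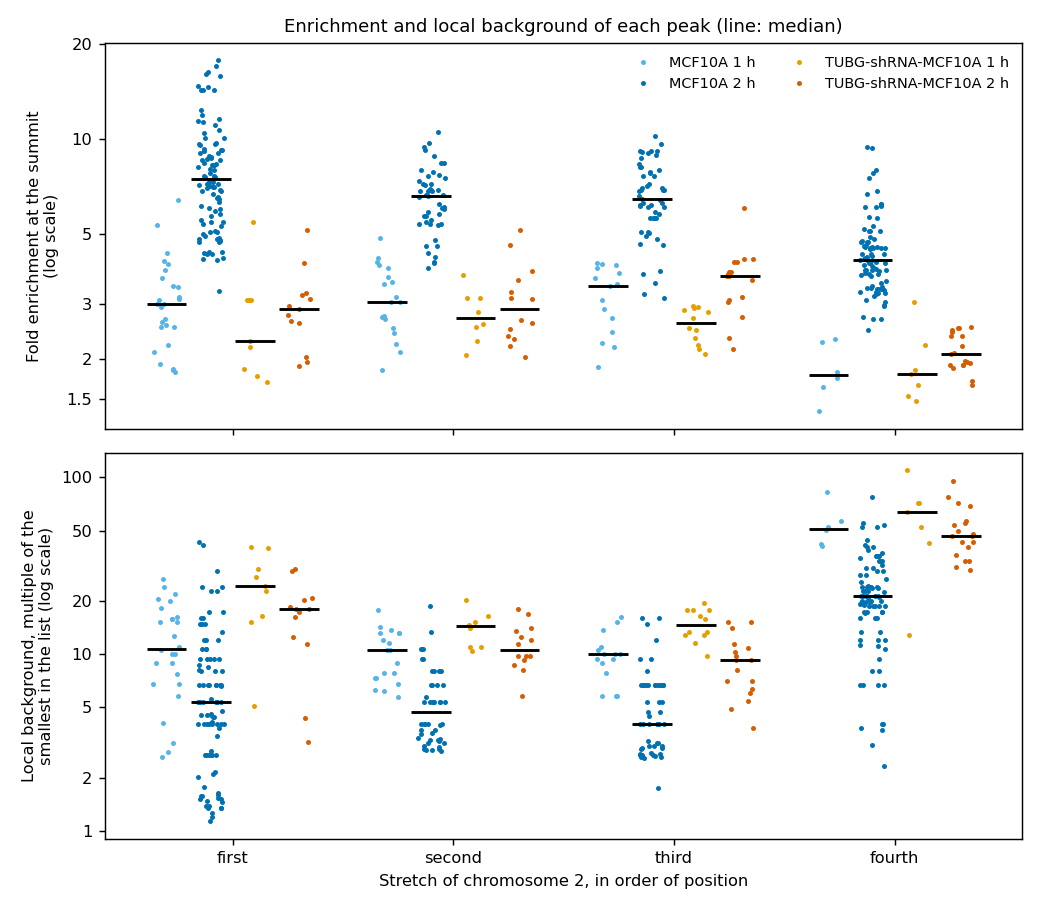
Each point is a PCNA peak, with its fold enrichment at the summit in the upper panel and its local background as a multiple of the smallest background of the same list in the lower panel, both on log scales, and the line is the median. The stretches, in order, are those at 89.9, 90.4, 91.6 and 92.3 Mb. The 92.3 Mb stretch has the lowest median enrichment and the highest median background in every list.

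Many summits of the 90.4 Mb stretch had a partner in the 91.6 Mb stretch at one and the same distance. When the 90.4 Mb summits were moved by 1221480 bp, 33 of the 44 that then fell within the 91.6 Mb stretch lay within 50 bp of one of its 53 summits in the MCF10A 2 h list. This offset was the one with the most pairs in that list, found after the data were seen, and the next best offset at least 1 kb away gave 21 pairs. Applied unchanged to the other lists, it paired 8 of 17 and 15 summits in the MCF10A 1 h list, 4 of 6 and 12 in the TUBG-shRNA-MCF10A 1 h list and 9 of 11 and 17 in the TUBG-shRNA-MCF10A 2 h list. When the best offset was searched in each of these lists on its own, it was 1221492, 1221489 and 1221482 bp. The offsets of the 4 lists therefore lay between 1221480 and 1221492 bp. The other 5 pairs of stretches, each at its own best offset in the MCF10A 2 h list, had 18 to 27 pairs in that list and 0 to 3 in each of the others.

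Most sites that recurred between lists in the 90.4 Mb stretch met summits of 2 or more lists in the 91.6 Mb stretch. All 17 sites of 2 or more lists that could be moved had a counterpart, meaning a summit within 50 bp of the moved mean summit. At 13 of these, summits of 2 or more lists lay within that distance. Of the 33 sites of 1 list, 25 had a counterpart, and 5 of these met summits of 2 or more lists. By the linking of neighbouring summits, which is another measure, 42 of all 61 sites of the 91.6 Mb stretch were in 1 list. A counterpart could be in any list, the dense MCF10A 2 h list included. The offset had been chosen for the most pairs in that list, and most of the moved sites include one of its summits. The number of counterparts is therefore in part set by that choice and is no separate evidence for the offset. The site of all 4 lists at 90383269 to 90383314 met that at 91604752 to 91604776. At the former, the fold enrichments were 2.52 (1 h) and 8.38 (2 h) in MCF10A cells, and 3.71 (1 h) and 3.28 (2 h) in TUBG-shRNA-MCF10A cells, and the summit reads were 66, 27, 55 and 47 in that order. At the latter, the summit reads were 70, 23, 51 and 57.

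In MCF10A cells, the median fold enrichment of the pairs was 3.72 at 90.4 Mb and 3.55 at 91.6 Mb at 1 h, and 6.64 and 6.42 at 2 h. In TUBG-shRNA-MCF10A cells, it was 3.14 and 2.89 at 1 h, and 2.66 and 3.09 at 2 h. The 90.4 Mb summit was the higher of the pair in 5 of 8, 16 of 33, 3 of 4 and 4 of 9 pairs, in the order MCF10A at 1 and 2 h and TUBG-shRNA-MCF10A at 1 and 2 h. The ratio within single pairs ranged from 0.604 to 2.12 over the 4 lists. The medians over all peaks of the 2 stretches, given above, were as near to each other in the MCF10A 2 h and TUBG-shRNA-MCF10A 1 h lists. In the MCF10A 1 h and TUBG-shRNA-MCF10A 2 h lists, they lay farther apart than those of the pairs. The medians therefore do not set the pairs apart in every list, and whether pairs are more alike than other peaks was not tested. How reads that match more than 1 place were assigned is not given in the sources used here, and whether the stretches share sequence was not tested.

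**Figure D4:**
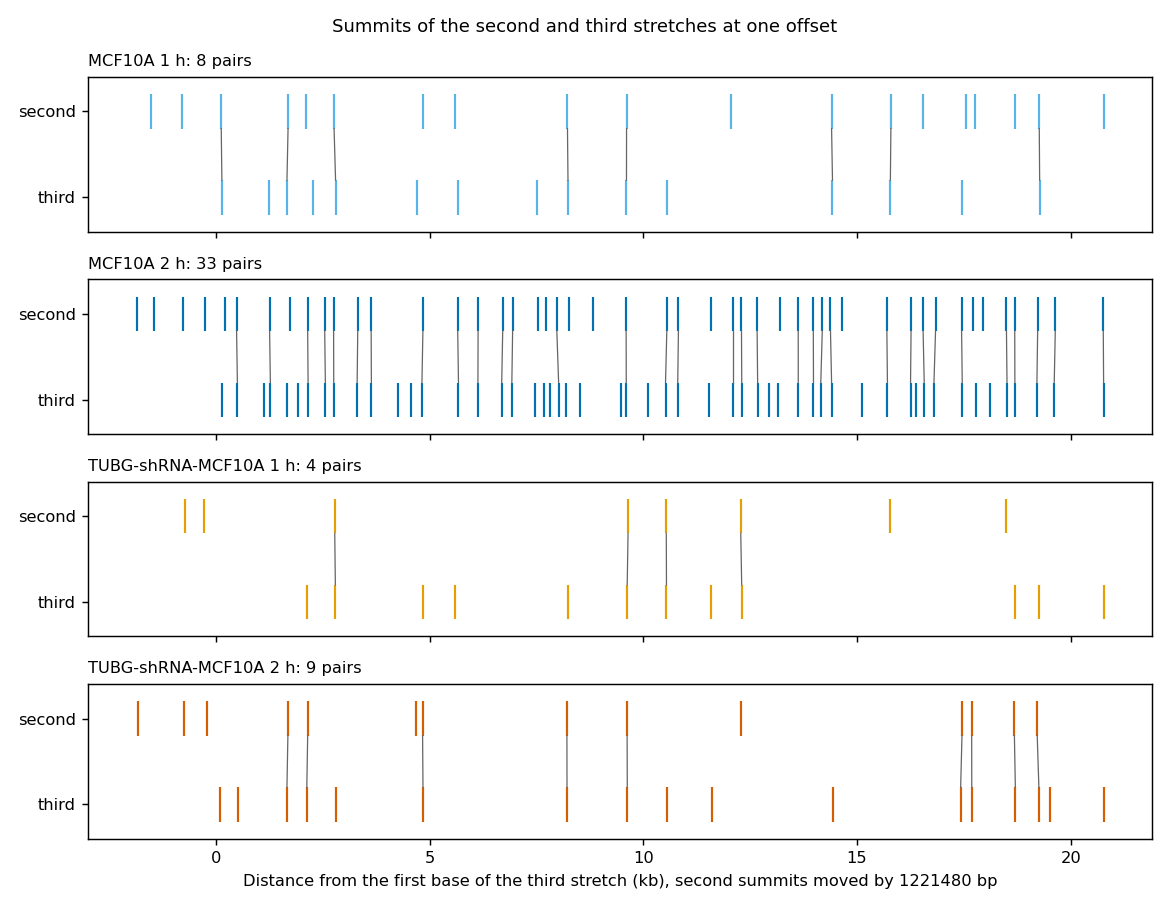
Vertical lines are the PCNA summits of the 90.4 Mb (second) and 91.6 Mb (the third) stretches in each list, with the 90.4 Mb summits moved by 1221480 bp, and the axis is the distance in kb from the first base of the 91.6 Mb stretch. Slanted lines join summits that lie within 50 bp, 8, 33, 4 and 9 pairs in the 4 lists from top to bottom, and the pairs run along the whole stretch in the MCF10A 2 h list.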

How the data were processed

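ChIP-seq of PCNA was analysed in 4 conditions, taken from the sample labels. Per the labels and the submitters' processing notes, the tools were Bowtie 1.0.0, MACS2 2.1.1 and bedtools 2.17.0 on hg19. The authors deposited 1 peak list per condition, called on both replicates, with positions, a ratio of summit to local background (fold enrichment), and the −log10 of the p-value and q-value. All lists end just below a q-value of 0.05. The deposited score repeats the −log10 q-value and was not used. The treatment of duplicate and multiply mapped reads and the library sizes are not given in the sources used here.

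The fold enrichment (pseudocount of 1) and the Poisson p-value were solved for summit reads and local background, with whole reads found for 100% of peaks (tolerance 0.0003). Python 3.11.15, numpy 2.4.6, pandas 2.3.3, scipy 1.17.1 and matplotlib 3.10.9 were used. Peaks named singly are the top 3 by −log10 q-value for each list and cluster, the sites of all 4 lists, and those nearest to the ends of the interval. Not every peak so chosen is described, and peaks at the same site as a named one are given beside it. In simulated data, reads were recovered for 400 of 400 peaks, all 60 of 60 shared sites and 50 of 50 offsets. The simulated sites lay much farther apart than most summits of the stretches, and the simulated stretches shared most of their summits. These counts check the code and cannot show how often dense summits meet by accident. Members and lists were chosen with earlier results of these data known. The alternatives were a stricter q-value, joined peaks, base pairs covered, other distances and overlaps. Those without pseudocount and with other tolerances for the offset were chosen after seeing the data.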

Additional observations from a re-analysis of the deposited data

How the results depend on the processing

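Of 76 alternative values, 64 stayed within the error or within 1.5 times of the value reported, 10 moved and 2 reversed. With peaks within 1 kb joined, the numbers of peaks were 31 (1 h) and 26 (2 h) in MCF10A cells and 31 in the TUBG-shRNA-MCF10A 2 h list. In MCF10A cells, the 2 h to 1 h ratio reversed to 0.839, as did that of MCF10A to TUBG-shRNA-MCF10A cells at 2 h, both with an interval that includes 1 (0.478 to 1.46). That of MCF10A to TUBG-shRNA-MCF10A cells at 1 h was 1.19 (0.685 to 2.09). Joining fuses dense peaks by construction. With a q-value of at most 1e-05, the TUBG-shRNA-MCF10A 1 h list had 18 peaks. In base pairs covered, the ratio of 2 h to 1 h in MCF10A cells was 2.97 and the share of the 89 to 90 Mb cluster at 2 h was 27.1%. Counting starts within 2 Mb of the gap, which adds the 90.4 Mb stretch, gave 41 peaks in the cluster next to the gap in MCF10A cells at 1 h. Without the pseudocount, an alternative chosen after seeing the data, the median fold enrichment in MCF10A cells at 2 h was 10.9 in the 89 to 90 Mb cluster and 5.41 next to the gap. Sites of all 4 lists numbered 7 to 15 and sites of 2 or more lists 63 to 95 under the other distances and overlaps, and the offset paired 27 to 41 summits in MCF10A cells at 2 h. No paired analysis was possible because the authors called peaks on both replicates together, and no replicate could be left out. The number of sequenced reads is not given in the sources used here, and the lists do not show that PCNA was absent where no peak was called.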
